A study of Mus musculus with 6 samples.

Results

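Mela and 7 predicted genes, Gm17167, Gm10590, Gm2192, Gm21093, Gm3893, Gm5859 and Gm7819, gave some of the highest array signals of SAMP8 cortex relative to SAMR1 cortex. They were selected from the strain difference itself, so their high level in SAMP8 is a description of the members and is given without a test. Every row of the deposited tables whose gene symbol entry holds one of these 8 names was taken, which gave 7 of 45077 probe sets, and 8 of the 22527 gene symbols on the array. The short probes that are read together as one signal make up a probe set. Mela had 3 probe sets and Gm17167 had 1, each naming that gene alone. The other 6 predicted genes shared 3 probe sets, and none of these 6 had a probe set to itself.

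Cerebral cortex was profiled on Affymetrix mouse genome array strips in 6 male mice, 2 in each of 3 groups. The labels give an age of 16 weeks and do not say whether it is the age at the start or when cortex was taken, and the methods name it where they describe the mice used, before acclimatization and feeding. SAMR1 mice, the senescence-resistant strain, received water (SAMR1). SAMP8 mice, the senescence-accelerated strain, received water (SAMP8 control) or an ethanolic extract of sugarcane tops, STEE, at 20 mg/kg by mouth (STEE-fed SAMP8), for 30 days and during 8 further days of behavior tests. The paper reports that BrdU, a label of dividing cells, was added to the drinking water of all mice for part of the feeding period. The 2 strains are separate inbred lines, so a strain difference holds every genetic difference between them, whether in ageing, in gene copies or in how well the probes match the transcripts, and these cannot be told apart in the group means. The files hold 1 mean log2 signal per group and probe set, to 2 decimals. The spread between the 2 mice of a group is not in these means, so no error, n or test accompanies a value here, and each value is the authors' mean.

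Mela, listed on the array as melanoma antigen, takes its name from an antigen of a mouse melanoma and is related in sequence to the envelope gene of an endogenous ecotropic murine leukemia virus. Such proviruses lie in the mouse germ line in numbers and places that differ between strains, and the AKR line from which the SAM strains were bred is known for carrying active ones. Gm17167 is named on the array only as a predicted gene. The other predicted genes are described there beside "protein FAM205A-like" entries, and they are called the FAM205A-like genes here. A RefSeq gene table of the mouse (GRCm38.p6) matched all 6 of them, as pseudogenes on chromosome 4, and it lists Gm10590 as an older symbol of Gm2192. Only Gm21093, Gm3893 and Gm5859 were taken as placed on the assembled chromosome. The listed starts of Gm2192, 60496, and Gm7819, 85877, were taken as lying on pieces not joined to it. The RefSeq table matched neither Mela nor Gm17167.

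The mouse chromosome 4 stretch in which Gm21093, Gm3893 and Gm5859 lie carries duplicated genes for chemokines, for the interleukin 11 receptor and for Fam205a. Probe sets there name many genes at once, and upstream sequences of this stretch from RefSeq (GRCm38.p6) are shown because they make visible how alike its copies are. The table of upstream sequences held none of the 8 members, so chemokine genes of the same stretch stand in for them. A run of 200 bases upstream of Ccl19, at chr4:42756416-42756615 on the minus strand, was set against 200 bases at its copy Gm12407, chr4:41793690-41793889. The windows of the 2 genes were shifted to the placing with the largest share of identical bases. The 2 runs therefore do not lie at the same distance from their gene starts. At that placing 198 of 200 bases were identical. The capitals mark the 2 bases that differed.
Ccl19 upstream: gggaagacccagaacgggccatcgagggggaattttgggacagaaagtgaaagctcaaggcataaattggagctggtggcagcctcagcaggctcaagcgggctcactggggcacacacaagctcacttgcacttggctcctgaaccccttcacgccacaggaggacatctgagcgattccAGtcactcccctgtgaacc
The 250 bases upstream of Ccl27b, at chr4:42650313-42650562 on the plus strand, were the same as those upstream of its copy Gm13306 at all 250 positions, so none is in capitals.
Ccl27b upstream: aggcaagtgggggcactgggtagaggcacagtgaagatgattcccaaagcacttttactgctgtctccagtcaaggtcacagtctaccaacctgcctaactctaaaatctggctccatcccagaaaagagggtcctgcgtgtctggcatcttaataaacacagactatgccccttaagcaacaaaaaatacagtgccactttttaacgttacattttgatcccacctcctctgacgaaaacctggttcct

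Gm17167 (1457324_PM_at) had a mean log2 signal of 4.08 for SAMR1, 9.14 for SAMP8 control and 9.63 for STEE-fed SAMP8. Both SAMP8 groups were far above SAMR1, and the STEE-fed group was the higher of them. The log2 difference of SAMP8 control from SAMR1 was 5.06, or 33.4-fold, which was the largest of all 45077 probe sets. The STEE-fed group was 5.55 above SAMR1 on the log2 scale, or 46.9-fold, and 0.49 above SAMP8 control, or 1.4-fold.

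Mela was read by 3 probe sets from 1 design cluster, all with the suffix _x_, which marks probe sets holding probes that can match other sequences. 1456182_PM_x_at had a mean log2 signal of 2.47 for SAMR1, 6.89 for SAMP8 control and 7.11 for STEE-fed SAMP8. 1433438_PM_x_at had a mean log2 signal of 3.85 for SAMR1, 7.44 for SAMP8 control and 7.63 for STEE-fed SAMP8. 1456456_PM_x_at had a mean log2 signal of 4.85 for SAMR1, 6.10 for SAMP8 control and 6.18 for STEE-fed SAMP8. The order of the groups was the same in each, with SAMR1 lowest and STEE-fed SAMP8 highest, and the size of the step between the strains was not. In SAMP8 control the log2 difference from SAMR1 was 4.42 (21.4-fold), 3.59 (12-fold) and 1.25 (2.38-fold), respectively. The third of these therefore read the strain step at 1.25 where the first read 4.42. The SAMR1 means of the first and second, 2.47 and 3.85, lay below the SAMR1 median of all probe sets, 4.16, and that of the third did not. By rank among all probe sets the 3 stood at 3, 8 and 39, and the neighbours of the last in that order were 1810022K09Rik at 1.27 and Hspa1b, a heat shock protein gene, at 1.21. The genes were picked for their strain difference, and their probe sets were then all taken by name, so the third Mela probe set was included with no fold threshold.

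The FAM205A-like genes were read by 3 probe sets from 1 design cluster. 1447937_PM_a_at, which names 11 symbols and all 6 of the FAM205A-like genes, had a mean log2 signal of 4.93 for SAMR1, 8.78 for SAMP8 control and 9.49 for STEE-fed SAMP8. 1447939_PM_a_at, which names 7 symbols and among them Gm21093, Gm3893, Gm5859 and Gm7819, had a mean log2 signal of 6.26 for SAMR1, 10.03 for SAMP8 control and 10.62 for STEE-fed SAMP8. 1447938_PM_at, which names only Gm10590 and Gm2192, had a mean log2 signal of 4.38 for SAMR1, 8.11 for SAMP8 control and 8.62 for STEE-fed SAMP8. The strain steps of these probe sets lay close together, unlike those of Mela. SAMP8 control was above SAMR1 by a log2 difference of 3.85 (14.4-fold), 3.77 (13.6-fold) and 3.73 (13.3-fold), respectively. The first and second of these signals are shared by several genes, and the third names Gm10590 and Gm2192, which the RefSeq table treats as a single gene. No other FAM205A-like gene has a signal of its own.

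**Figure D1:**
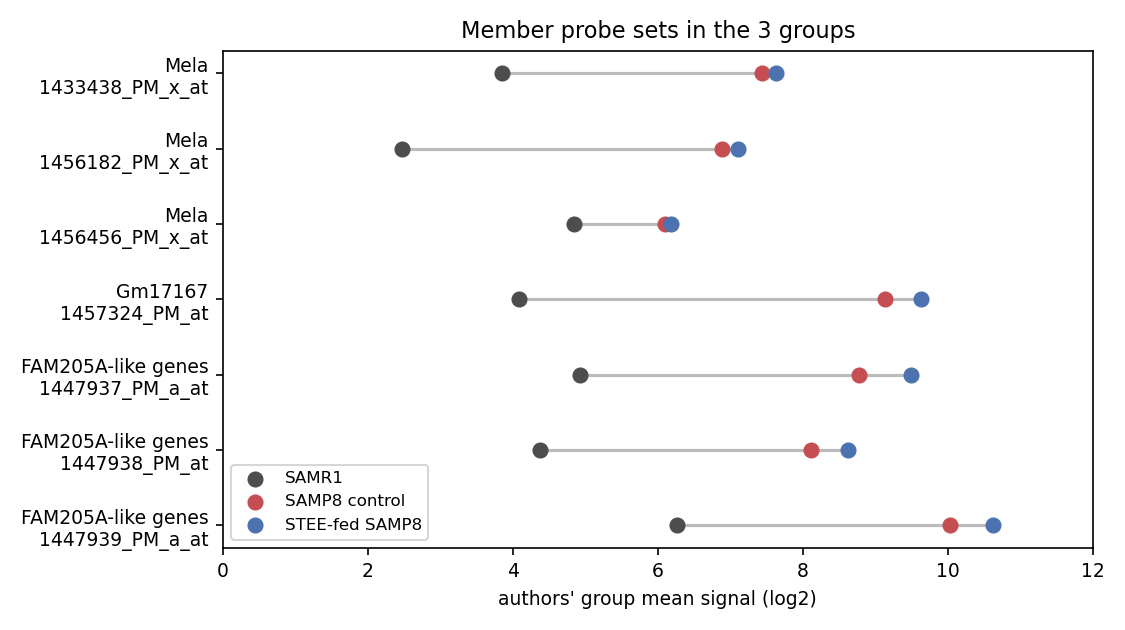
Authors' mean log2 signal (x axis) of each of the 7 member probe sets (y axis) in SAMR1 (dark grey), SAMP8 control (red) and STEE-fed SAMP8 (blue), with no error bars because the files hold group means only. In every row the SAMR1 point lies to the left and the STEE-fed point is the rightmost, and the gap between the strains is smallest for the Mela probe set 1456456_PM_x_at.

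Side by side, the 7 member probe sets had a median log2 difference of SAMP8 control from SAMR1 of 3.77, where the median of all probe sets was 0.0 and the central 98% lay between -0.41 and 0.44. All 7 were at least 2-fold higher in SAMP8 control, as were 0.138% of all probe sets. The genes were picked for this difference, so the count follows largely from the selection. No fold threshold was set for single probe sets of a picked gene. Their place at the top of the ranking follows from the selection too. Of the 8 largest strain differences upward on the array, 6 named a member, and the cut at 8 falls on a Mela probe set. The remaining member probe set stood at rank 39. The STEE-fed group repeated the difference from SAMR1, with a median of 4.36 and all 7 member probe sets at least 2-fold higher, against 0.146% of all probe sets. Both differences are taken from the same SAMR1 arrays, so the second is not independent of the first.

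The members were higher in the STEE-fed group than in the SAMP8 control group, and the step was larger for the predicted genes than for Mela. The log2 difference was 0.71 (1.64-fold) for 1447937_PM_a_at, 0.59 (1.51-fold) for 1447939_PM_a_at and 0.51 (1.42-fold) for 1447938_PM_at, beside the 0.49 of Gm17167. These 4 probe sets were at least 1.2-fold higher with STEE, which was the case for 1.03% of all probe sets, and they ranked 5, 9, 22 and 28 among the 45077 in this direction. The Mela probe sets differed by 0.22, 0.19 and 0.08, and 0 of 3 reached 1.2-fold. All 7 member probe sets had a higher mean with STEE, as did 47.3% of all probe sets, and their median log2 difference was 0.49 where that of all probe sets was 0.0. The 7 probe sets come from 3 design clusters and those of one cluster read the same or near-identical transcripts, so they are not 7 separate observations. The SAMP8 control arrays enter the strain difference that chose the members as well as the difference with STEE, so the comparisons share them. Whether the step with STEE exceeds the spread between mice cannot be read from group means.

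**Figure D2:**
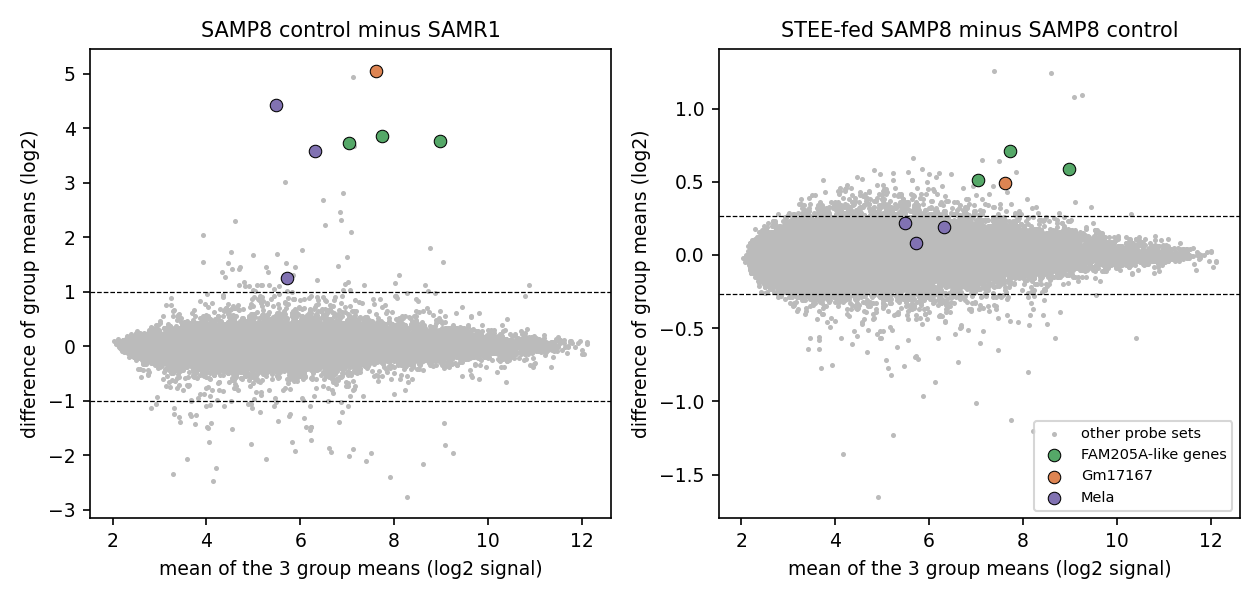
Difference of group mean log2 signals (y axis) against the mean over the 3 groups (x axis) for all 45077 probe sets (grey) and the 7 member probe sets (coloured by gene group), for SAMP8 control minus SAMR1 (left, dashed lines at 2-fold) and STEE-fed SAMP8 minus SAMP8 control (right, dashed lines at 1.2-fold). The members lie above the 2-fold line on the left, and on the right the FAM205A-like probe sets and Gm17167 lie above the 1.2-fold line at 0.49 to 0.71 while the 3 Mela probe sets lie below it.

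Outside the members, the pattern most like that of 1 of the Mela probe sets, 1433438_PM_x_at, belonged to a chemokine probe set. That chemokine probe set names genes of the chromosome 4 stretch described above. The other Mela probe sets were not used for this comparison. Likeness was measured as the distance, over the log2 differences of both SAMP8 groups from SAMR1, to the Mela probe set of highest mean signal, 1433438_PM_x_at, over the probe sets that name a gene and no member. Nearest of these, at a distance of 0.15, was 1449277_PM_at, which names Ccl19, a ligand of the chemokine receptor Ccr7, with 9 further symbols, Gm12407 among them. Its mean log2 signal was 4.61 for SAMR1, 8.28 for SAMP8 control and 8.52 for STEE-fed SAMP8. The other 4 of the nearest 5 so chosen were farther off. Galc, a lysosomal galactosylceramidase, was at a distance of 0.91 with 3.65, 6.67 and 6.72. Vps41, a subunit of a complex for vesicle fusion with the lysosome, was at 1.25 with 5.05, 7.87 and 7.84. Soga3 was at 1.42 with 4.69, 7.37 and 7.38, and Abcb1a, the drug efflux pump of the blood-brain barrier, was at 1.94 with 3.06, 5.36 and 5.39. All 5 were low in SAMR1 and high in both SAMP8 groups, which the measure requires, and with 3 group means a likeness rests on 2 differences only.

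The genes around Gm21093, Gm3893 and Gm5859 were then taken in RefSeq order, since a shared position was not used to choose the members. Within 500 kb on either side the table holds 58 genes, of which 30 were on the array under a current or older symbol, the 3 members included. The other 27 genes were read by 27 probe sets that name no member. Of these, 11 were at least 1.5-fold apart between SAMP8 control and SAMR1, or 40.7%, against 0.876% of all probe sets, and all 11 were higher in SAMP8 control. Several of the 11 share genes or near-identical copies, so they are fewer observations than their number. Among the 11, 1454314_PM_at shares the symbol LOC100041516 with a member probe set, and 1439647_PM_at names Fam205a genes. Both may therefore not be separate from the member signal.

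Among the neighbours that the array names as single genes, Dctn3, a subunit of the dynein cofactor dynactin, had a mean log2 signal of 7.97 for SAMR1, 9.52 for SAMP8 control and 9.65 for STEE-fed SAMP8. Its log2 difference between the strains was 1.55, or 2.93-fold. Rpp25l, related to a protein subunit of ribonuclease P, had 5.56, 6.49 and 6.62 and differed by 0.93. Gm21953, listed under its older symbol Gm13308, had 3.80, 5.47 and 5.71 and differed by 1.67. The SAMP8 groups were thus above SAMR1 at each of these genes, by less than at the members other than the Mela probe set 1456456_PM_x_at, whose 1.25 was smaller than the differences of Dctn3 and Gm21953.

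The duplicated chemokine, receptor and Fam205a genes formed a list of 12 genes, all on the array but read through only 6 probe sets at their highest mean signal. All 6 were at least 1.2-fold apart between some pair of groups, against 10.6% of all genes. These 6 are among the neighbouring probe sets counted above, and the list was drawn up with earlier results of these data known. The count is therefore no separate result. Ccl19 is described above. Ccl27a, a chemokine whose receptor is Ccr10, had a mean log2 signal of 8.14 for SAMR1, 9.11 for SAMP8 control and 9.37 for STEE-fed SAMP8 at the probe set that names it alone. The shared Ccl27a and Ccl27b probe set of highest mean signal had 7.83, 8.95 and 9.20. The probe set that names Fam205a1 to Fam205a4 under older symbols (1439647_PM_at) had 6.09, 7.26 and 7.67, a strain difference of 1.17. These were the chemokine and Fam205a copies with higher SAMP8 signal, and other copies in the same stretch gave near-equal strain means. The Ccl21 probe set, for chemokines that share the receptor Ccr7 with Ccl19, had 3.25, 3.37 and 3.69, and that of the interleukin 11 receptor genes Il11ra1 and Il11ra2 had 6.07, 5.91 and 6.35. Both of the latter were higher with STEE, by 0.32 and 0.44. Another probe set of the interleukin 11 receptor genes, 1459868_PM_x_at, had 2.78, 2.73 and 2.80, and was higher with STEE by only 0.07. The list had a median log2 difference of 1.04 between the strains and 0.29 with STEE, where the medians over all probe sets were 0.0 and 0.0.

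Along the RefSeq order, the 10 probe sets of Fam219a, Dnaic1, Enho and Cntfr at one end of the window had strain differences between -0.19 and 0.16. The higher signals of SAMP8 began at Rpp25l and were broken by Galt, the galactose-1-phosphate uridylyltransferase gene, at -0.09, by the interleukin 11 receptor genes and by Ccl21. At the other end, 4930578G10Rik was read by a pair of probe sets that disagreed. One, which also names LOC100041516, had 3.26, 4.79 and 5.32, and the other, which names 4930578G10Rik alone, had 3.61, 3.60 and 3.58. LOC100041516 is also among the symbols of the FAM205A-like probe set 1447937_PM_a_at. With STEE, 20 of the 27 neighbouring probe sets had a higher mean, against 47.3% of all probe sets, and 6 were at least 1.2-fold higher, against 1.03% of all. Among the 6 were 1439647_PM_at and the probe set naming LOC100041516, which may not be separate from the member signal.

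**Figure D3:**
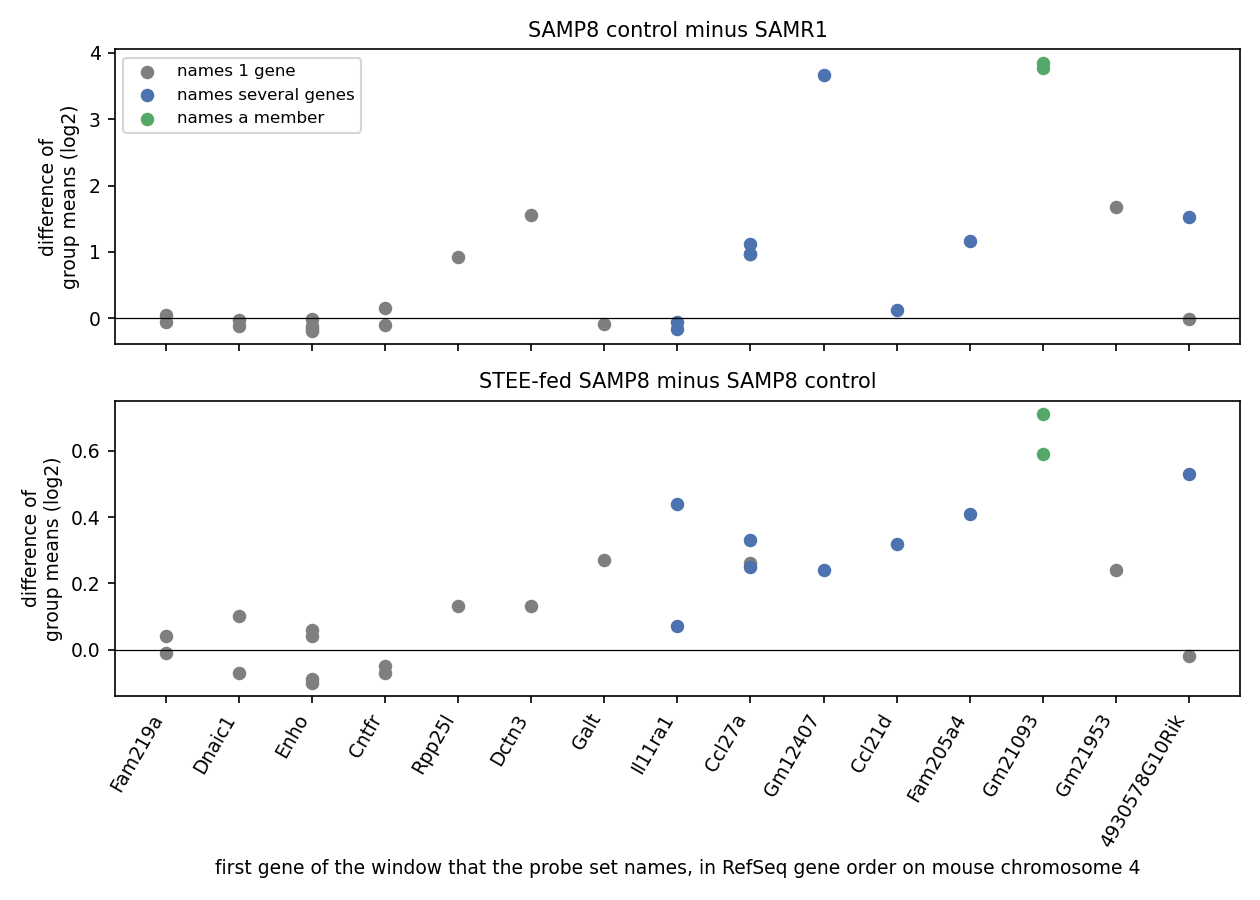
Difference of group mean log2 signals (y axes) for probe sets of genes within 500 kb of Gm21093, Gm3893 and Gm5859, by RefSeq gene order on mouse chromosome 4 (x axis, not to scale in distance), for SAMP8 control minus SAMR1 (top) and STEE-fed SAMP8 minus SAMP8 control (bottom). Grey points name 1 gene, blue points several and green points a member. Strain differences stay between -0.19 and 0.16 from Fam219a to Cntfr, reach 3.67 at the Ccl19 probe set, which is drawn at its copy Gm12407, and are highest at the member probe sets.

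Other genes linked to retroviruses, by entry, restriction, silencing or descent, were read as lists, beside the provirus-related Mela. The 4 cell surface receptors by which murine leukemia viruses enter cells had strain differences between 0.02 and 0.06, and none was 1.2-fold apart between any groups. Over all genes 10.6% were that far apart, and so few genes per list can be read only loosely against it. Of 8 restriction genes 3 were, namely Trim30a at 3.77 for SAMR1, 4.13 for SAMP8 control and 4.12 for STEE-fed SAMP8, Trim12c at 3.50, 3.26 and 3.16, and Bst2, which tethers budding virus, at 3.17, 3.28 and 3.47. Of 20 genes of provirus silencing 19 were on the array and 2 were that far apart. Zfp809, a zinc finger protein that recruits silencing to murine leukemia proviruses, had 4.91, 5.43 and 5.47, so the SAMP8 groups were above SAMR1 by 0.52 and 0.56. Tasor, a subunit of the silencing complex HUSH, had 4.64, 4.49 and 4.88. Of 8 cellular genes derived from retroviruses or retrotransposons 5 were on the array, and Arc, an immediate-early gene of neurons, was the 1 so far apart, with 7.64, 8.36 and 7.23. These restriction, silencing and retrovirus-derived lists had median strain differences between -0.05 and -0.02, against 0.0 over all probe sets. By their medians they lay near the middle of the array, though 3 of 8 restriction genes were 1.2-fold apart. Those 3 had means below the column medians of 4.16 for SAMR1 and 4.15 for both SAMP8 groups, so their steps are between low signals.

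The samples were checked against markers of cortex and of other cells. All 8 cortical projection neuron markers had means between 5.93 and 11.58 in the 3 groups. Of these 8, 4 were 1.2-fold apart between some pair of groups, against 10.6% of all genes. Tbr1, Cux2 and Fezf2 were among them, with strain differences from -0.27 to 0.16 and differences with STEE from 0.27 to 0.30. At least 1.2-fold higher with STEE were 3 of 8, against 1.03% of all probe sets. All 8 were higher with STEE, by 0.04 to 0.30, with a median of 0.16 against 0.0 over all genes. Whether this bears on the members' step with STEE was not tested. The 8 lymphoid markers, of interest because murine leukemia proviruses are active in lymphoid cells, had strain differences between -0.18 and 0.10 and differences with STEE between -0.11 and 0.07, and 0 of 8 reached 1.2-fold. Blood markers were likewise all within 1.2-fold, and 1 of 6 microglia markers, Aif1 (5.37 for SAMR1, 5.56 for SAMP8 control and 5.64 for STEE-fed SAMP8), was not. Of 5 endothelial markers Cldn5 (6.13, 5.85 and 6.0) and Ly6c1 (8.03, 8.31 and 8.38) were outside that fold. Of 5 choroid plexus markers Ttr, the transthyretin gene, was lower in SAMP8 control by a log2 difference of -1.96 and higher with STEE by 1.09, at 10.20, 8.24 and 9.33, while the other 4 were within 1.2-fold. Its part in the members' values was not tested. In cortex as a whole, more cells of a type and more RNA per cell cannot be told apart.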

How the data were processed

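Cortical RNA was amplified and labelled with a 3' in vitro transcription kit and hybridised to array strips, for 2 mice per group. The authors summarised the arrays with RMA in Expression Console, compared groups in Transcriptome Analysis Console, and deposited log2 signals as bi-weight group averages in 2 tables, SAMP8 control vs. SAMR1 and STEE-fed SAMP8 vs. SAMP8 control. The SAMP8 control column was identical in both tables. The tables also hold the authors' linear fold changes, ANOVA p-values and FDR p-values, which were not used. Array annotation and its genome build are not given in the sources used here.

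Group means were subtracted on the log2 scale without further normalization. Their column medians were 4.16 (SAMR1), 4.15 (SAMP8 control) and 4.15 (STEE-fed SAMP8). The 3 group means do not give a spread between mice, so no test was made. The fold thresholds were 2 for strain, 1.5 for neighbouring genes and 1.2 for STEE and the gene lists. RMA means carry no detection call, and the number of arrays, 6, limits the precision. Named genes were the members, the 5 probe sets nearest in pattern to Mela among those naming a gene and no member, neighbours at least 1.5-fold apart and list genes at least 1.2-fold apart, each list gene at its probe set of highest mean signal. The values of 1 neighbouring gene and 1 cortical marker are not reported here or drawn, and the counts include them. Array symbols were matched to the RefSeq gene table of GRCm38.p6, older symbols only where 1 gene held them. The members and lists were chosen with earlier results of these data known. The subtraction and counting were tested on simulated data. Alternatives were a centring on column medians, other folds, a filter on low signal, probe sets naming 1 gene, probe sets without the suffixes _x_, _s_ or _a_, and means over the probe sets of a gene. Calculations used Python 3.11.15, numpy 2.4.6, pandas 2.3.3 and matplotlib 3.10.9.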

Additional observations from a re-analysis of the deposited data

How the results depend on the processing

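No direction was reversed under any alternative, and centring on column medians or filtering on low signal left each count of member probe sets as it was. With only probe sets naming 1 gene, 4 of 4 member probe sets (3 of Mela and 1 of Gm17167) stayed at least 2-fold above SAMR1 in SAMP8 control. In STEE-fed SAMP8 4 of 4 did. Of all probe sets naming 1 gene, 0.097% and 0.113% did, respectively. With only probe sets without the suffixes _x_, _s_ or _a_, 2 of 2 did in each SAMP8 group, against 0.116% and 0.125% of all such probe sets. These counts are lower because fewer member probe sets remain. At least 1.2-fold higher with STEE were 4 of 7, which became 2 of 7 at 1.5-fold, 1 of 4 among probe sets naming 1 gene and 2 of 2 without those suffixes. The shares of all probe sets that far apart in either direction were 2.01%, 0.0799%, 1.94% and 1.99%, respectively. Averaging over the probe sets of a gene gave strain differences of 3.09 in place of 3.59 for Mela, 3.79 in place of 3.85 for Gm10590 and Gm2192, and 3.81 in place of 3.77 for Gm21093, Gm3893, Gm5859 and Gm7819. The differences with STEE became 0.16 in place of 0.19 for Mela, 0.61 in place of 0.71 for Gm10590 and Gm2192, and 0.65 in place of 0.59 for the other 4. No paired analysis was possible because the columns hold group means and carry no replicate, and for the same reason no mouse could be left out in turn.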

Other observations

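One probe set without a gene symbol, 1435579_PM_at, was chosen after its values were seen because it stood beside the members. Its mean log2 signal was 3.62 for SAMR1, 8.56 for SAMP8 control and 9.21 for STEE-fed SAMP8. The strain difference of 4.94 was second only to that of Gm17167, the difference of STEE-fed SAMP8 from SAMR1, 5.59, was the largest of all probe sets, and with STEE it was 0.65 higher than SAMP8 control, at rank 7. Its transcript is not named in the tables.

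Widening the window around Gm21093, Gm3893 and Gm5859 from 500 to 1500 kb on either side, also chosen after the values were seen, added 91 probe sets. Of these, 4 were at least 1.5-fold apart between the strains, or 4.4%, against 0.876% of all probe sets. In SAMP8 control 2 of the 4 were higher and 2 lower. Pigo, an enzyme of glycosylphosphatidylinositol anchor synthesis, had 4.82 for SAMR1, 6.59 for SAMP8 control and 6.70 for STEE-fed SAMP8 at one probe set, while its other probe sets differed between the strains by -0.04 and 0.27. Dnajb5, a co-chaperone, had 6.14, 6.82 and 6.61 at 1421962_PM_at, a strain difference of 0.68, while its other probe sets differed by 0.22 and 0.41. Hint2, a mitochondrial hydrolase, had 6.69, 5.74 and 5.68. Vcp, an ATPase of protein quality control, had 4.96, 2.89 and 2.91 at one probe set and a strain difference of -0.02 at another. At Vcp, Pigo and Dnajb5 the probe sets of a single gene thus gave different strain differences.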
